A study of Mus musculus with 12 samples.

Results

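The long non-coding RNA (lncRNA) genes Zfas1, Gas5, Snhg1, Snhg3, Snhg5, Snhg6, Snhg8, Snhg12, Snhg15 and Snhg20 carry small nucleolar RNA (snoRNA) genes inside their transcribed regions. These 10 of the 49585 genes in the count tables were matched by GENCODE symbol through their Ensembl identifiers and were followed in all 12 libraries. They were chosen by their class and with their total RNA values in these libraries already known, so their total RNA difference between genotypes is given as a description without p-values, and the number of them past the threshold stands only beside the share of all genes, with nothing read from it. The libraries came from CD4 T cells isolated as naive cells from lymph nodes of female mice and activated for 20 h on plates coated with anti-CD3 at 5 ug/ml and anti-CD28 at 1 ug/ml. Cycloheximide, which stalls ribosomes, was added at 0.1 mg/ml for 1 min before lysis of every culture. Control cells were Rnmt fl/fl without Cre, and Rnmt cKO cells were Rnmt fl/fl with CD4cre, which deletes the floxed exon in the thymus once thymocytes express both CD4 and CD8. All animals thus carried the floxed allele, and no control carried Cre. Rnmt encodes the methyltransferase that completes the methylated guanosine cap of RNA polymerase II transcripts, and the comparison asks what its loss does to RNA levels and ribosome occupancy. From each genotype 3 libraries of total cytoplasmic RNA and 3 of ribosome-protected fragments (RPF) were counted, with 15079703 to 22629563 counts on genes per total RNA library and 4123271 to 10661356 per RPF library.

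snoRNAs are small RNAs that guide ribose methylation (the C/D box class) or pseudouridylation (the H/ACA class) of ribosomal RNA, or take part in its cleavage. In vertebrates most are trimmed out of the introns of longer host transcripts, and in the lncRNA hosts the spliced exons have no long conserved reading frame. Several spliced host RNAs are exported, engaged by ribosomes on short reading frames and then degraded by nonsense-mediated decay (NMD), and Gas5 is a classic example of a host whose transcripts begin with a terminal oligopyrimidine (TOP) tract, the start that also marks ribosomal protein mRNAs.

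In the GENCODE vM21 annotation (GRCm38/mm10), Zfas1 spans chr2:167062934-167065862 on the plus strand and holds 3 small RNA genes. Gas5, named for its rise in growth-arrested cells, lies at chr1:161034422-161038539 on the plus strand with 10. Snhg1 lies at chr19:8723475-8726443 on the plus strand with 8, and Snhg12 at chr4:132308623-132311024 on the plus strand with 5. On the minus strand, Snhg3 lies at chr4:132348014-132353686 with 2 and Snhg5 at chr9:88521050-88522929 with 2. The minus-strand genes Snhg6 (chr1:9941959-9944118), Snhg8 (chr3:123507552-123508404) and Snhg15 (chr11:6525591-6528760) hold 1 each, as does Snhg20 (chr11:117076008-117078955, plus strand). Of the 34 small RNA genes, 33 were annotated as snoRNA and 1 as a small Cajal body RNA, and 26 had no base in an exon of the host's basic transcripts.

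The first 30 bases of 1 annotated transcript per gene are shown because the host RNAs differ in their annotated starts. Capitals mark a C at the first base followed by at least 4 bases that are C or T, a search chosen after the levels had been seen. The sequences were read from the GENCODE vM21 transcripts. Where any transcript of a gene had such a start, the one shown was picked for it, and for the other 3 genes it is one that begins at the RefSeq start.

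Zfas1: CCTTTCgttccggcggctcctagagcgttt
Gas5: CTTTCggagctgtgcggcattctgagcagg
Snhg3: CTCTCTaggcgtcgctctcttggtgtgctt
Snhg5: CTTTTacgacggagcctaagatattctttg
Snhg6: CTTTCTCggcagcgccgtagagcgcgagca
Snhg8: CCCTCgcgcgcaggctcttgggagagcgtc
Snhg12: CCTTTCTCgcttcatccgcggtccctgtct
Snhg1: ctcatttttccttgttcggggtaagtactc
Snhg15: aactttaagcacacgtgagcgtcctcagct
Snhg20: gaagtgcatttgcagagctggttccgccgg

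Most annotated transcripts of these genes did not begin this way. The start was found in 1 of 5 transcripts of Zfas1, Snhg3 and Snhg6 each, 5 of 25 of Gas5, 1 of 6 of Snhg5, 1 of 3 of Snhg8 and 3 of 10 of Snhg12. At least 1 annotated transcript thus had it in 7 of the 10 genes, against 10.4% of the 11507 genes tested in total RNA that had an annotated transcript and 43.8% of 80 ribosomal protein genes. The medians were 5.5 transcripts per host gene and 5 per gene tested, and more transcripts give more chances of a match. At the single start that RefSeq gives (GRCm38.p6), 2 of the 9 host genes with an entry matched, Gas5 and Snhg8, against 3.02% of 8498 genes. For Snhg1, Snhg15 and Snhg20 these letters were absent from the first bases of the annotated transcripts, which says nothing of where their transcription started in these cells.

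Rnmt itself was read first as a check of the labels. It stood at 95.3, 93.9 and 94.1 CPM (counts scaled to the total gene counts of the library after TMM normalization) in the control total RNA libraries and at 29.3, 32.3 and 30.3 CPM in Rnmt cKO. In RPF the control libraries had 104, 87.7 and 98.7 CPM and the Rnmt cKO libraries 10.5, 10.3 and 9.57 CPM. The genotypes did not overlap in either kind of library, and the fold decreases were 3.08 in total RNA and 9.47 in RPF (edgeR quasi-likelihood test, adjusted p = 5.84e-06 and 4.81e-06). Only 1 exon is floxed, so reads over the other exons of Rnmt are still counted.

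All 7 CD4 T cell markers (Cd3e, Cd3d, Cd3g, Cd4, Trac, Lck and Cd28) were present in every library, summing to between 2287 and 3165 CPM in total RNA. In each kind of library 4 of them were lower and none higher in Rnmt cKO. Of all genes tested, 28% were lower in total RNA and 15.7% in RPF. Of the 4 activation markers Cd69, Il2ra, Tnfrsf4 and Irf4, 3 were higher in Rnmt cKO and none lower in each kind of library. Of all genes tested, 26.3% were higher in total RNA and 14.1% in RPF. The part of these markers in the differences of the host genes was not tested. Summed CD8 T cell markers reached at most 41.6 CPM, and myeloid, NK and erythroid markers at most 1.29 CPM, in the total RNA libraries. The 3 B cell markers, of which Ms4a1 was the most abundant, summed to 5.88, 3.43 and 22.8 CPM in control total RNA and to 58.2, 64.1 and 12.5 CPM in Rnmt cKO. The part of B cells in the differences of the host genes was not tested.

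Per length of exon, 9 of the 10 host genes lay above the median protein-coding gene in control total RNA, where the median over 10268 protein-coding genes was 9.93 RPKM (CPM divided by the exon length in kilobases). Gas5 was the highest at 403 ± 10.9 RPKM (SD, n = 3), above 99.5% of protein-coding genes. Zfas1 at 322 ± 5.04 RPKM and Snhg1 at 263 ± 5.77 RPKM followed. Then came Snhg8 (168 RPKM), Snhg5 (133 RPKM), Snhg6 (99.6 RPKM), Snhg15 (86.0 RPKM), Snhg3 (71.4 RPKM) and Snhg12 (49.2 RPKM). Snhg20 was the lowest at 3.05 ± 0.28 RPKM, above 22.5% of protein-coding genes. In that order no gene's 3 libraries overlapped those of its neighbour. The exon lengths include bases shared with other genes on the strand, where reads were left out. Such bases made up 25.6% of the exon bases of Zfas1, 27.4% of Snhg3, 19.7% of Snhg15 and none of Gas5 or Snhg6. The order, that of Gas5 and Zfas1 included, therefore depends on the length used.

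In Rnmt cKO total RNA the order, on the same lengths and with the same limit, was another. Snhg15 was the highest at 242 ± 14.1 RPKM, followed by Snhg1 at 113 ± 0.41 RPKM and Gas5 at 85.8 ± 3.60 RPKM, and Zfas1 stood at 53.0 ± 0.81 RPKM. The only neighbours whose libraries overlapped were Snhg3 (19.0 RPKM) and Snhg12 (17.5 RPKM). All host genes together took 0.131% ± 0.00176 of gene counts in control and 0.0529% ± 0.00249 in Rnmt cKO (SD, n = 3). In RPF they took 0.0539% ± 0.00521 and 0.0311% ± 0.00258. These are shares of each library, so fewer cells of a type and less RNA per cell cannot be told apart.

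Between genotypes in total RNA, 8 of the 10 were lower in Rnmt cKO past an adjusted p of 0.05 and 1 was higher, where 28% of the 11519 genes tested were lower and 26.3% higher. The same 9 had genotypes that did not overlap, as had 32.3% of genes tested downward and 30% upward. The rule used this contrast and the counts are not a result about the genes. Zfas1, transcribed away from the promoter of Znfx1, had 235, 242 and 237 CPM in control and 38.5, 39.7 and 39.1 CPM in Rnmt cKO. Gas5 had 350, 332 and 347 CPM in control and 70.9, 71.6 and 76.5 CPM in Rnmt cKO. Both were several-fold lower in each Rnmt cKO library than in any control library, with log2 differences of -2.60 (SE 0.05) and -2.23 (SE 0.06).

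Snhg8, the host of Snora24, had 104, 105 and 96.1 CPM in control and 23.9, 21.1 and 25.5 CPM in Rnmt cKO, a log2 difference of -2.11 (SE 0.08). Snhg5, the host of Snord50a and Snord50b, had 135, 141 and 141 CPM in control and 35.5, 33.5 and 35.8 CPM in Rnmt cKO (log2 difference -1.99, SE 0.06). Snhg3, the host of the H/ACA RNAs Snora73a and Snora73b, had 41.4, 39.5 and 43.7 CPM against 12.1, 11.6 and 9.40 CPM (-1.92, SE 0.11). In each of these the control libraries lay within a narrow band and the Rnmt cKO libraries below it.

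Snhg12 had 69.4, 66.5 and 73.2 CPM in control and 25.6, 23.9 and 24.9 CPM in Rnmt cKO, a log2 difference of -1.49 (SE 0.07). Snhg1 had 228, 232 and 222 CPM in control and 97.7, 97.4 and 98.1 CPM in Rnmt cKO (-1.22, SE 0.05). Snhg6 had 99.7, 95.0 and 97.8 CPM in control and 47.4, 44.3 and 48.7 CPM in Rnmt cKO (-1.06, SE 0.06). These were the smallest decreases, and the genotypes again did not overlap.

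Snhg15, the host of Snora9, went the other way. It had 55.9, 60.2 and 58.0 CPM in control and 156, 160 and 174 CPM in Rnmt cKO, 2.82-fold more (log2 difference 1.49, SE 0.06). Snhg20, the host of a small Cajal body RNA, had 7.04, 7.66 and 8.45 CPM in control and 8.60, 7.83 and 9.40 CPM in Rnmt cKO. Its genotypes overlapped, and its log2 difference was 0.16 (SE 0.12).

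**Figure D1:**
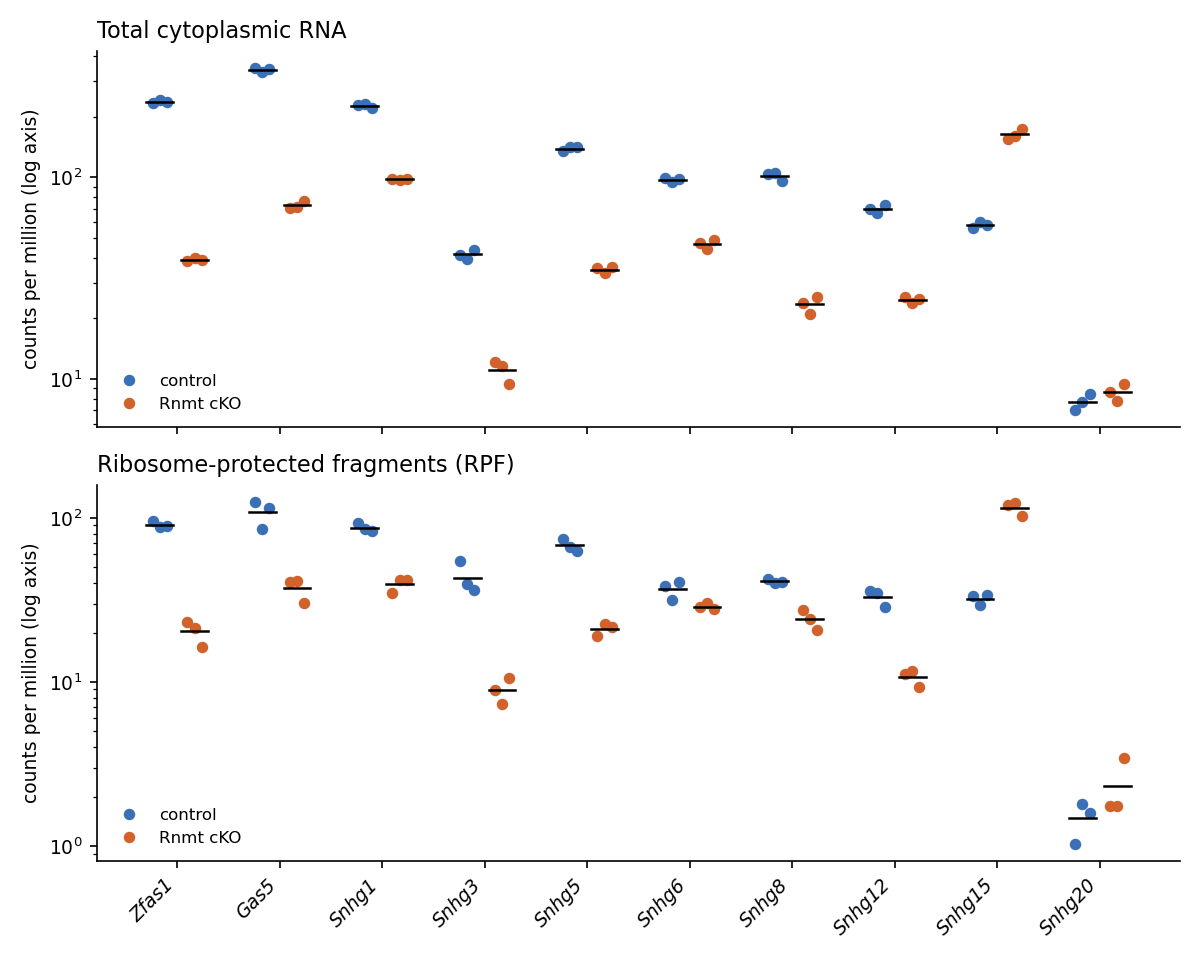
CPM (log axis) of each host gene in every library, total RNA above and RPF below; points are the 3 libraries of each genotype and bars their means. Snhg15 is the only gene whose Rnmt cKO libraries all lie above the control libraries, and Snhg20 the only one whose genotypes overlap, in both kinds of library.

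RPF were measured in libraries of their own, and the genotype difference in RPF is given with its p-values. Earlier results from these libraries were known when the genes were chosen, and same-numbered total RNA and RPF libraries deviated together. The RPF p-values of the host genes are therefore not an independent test, and they describe the spread between these libraries. In RPF, 8 of the 10 host genes fell and 1 rose, where 15.7% of the 11428 genes tested fell and 14.1% rose. The median log2 difference was -1.34 over the host genes and 0.01 over all genes tested. The same 9 genes had genotypes that did not overlap, 8 lower and 1 higher, where 24.3% and 22.2% of genes tested did so.

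Snhg3 had 54.3, 39.4 and 36.2 CPM in control RPF and 8.87, 7.31 and 10.6 CPM in Rnmt cKO, 4.99-fold less (log2 difference -2.32, SE 0.20, adjusted p = 1.71e-04). Zfas1 had 96.1, 87.7 and 88.7 CPM in control and 23.2, 21.3 and 16.4 CPM in Rnmt cKO, 4.39-fold less (-2.14, SE 0.12, adjusted p = 4.33e-05). Snhg5 had 74.4, 66.6 and 63.2 CPM in control and 19.1, 22.5 and 21.6 CPM in Rnmt cKO (-1.69, SE 0.10, adjusted p = 5.31e-05). In these genes the highest Rnmt cKO library lay well under the lowest control library.

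Snhg12 fell by 1.60 on the log2 scale (SE 0.14, adjusted p = 1.90e-04), from between 28.5 and 36.0 CPM to between 9.33 and 11.7 CPM. For Gas5 the control libraries had 125, 85.9 and 115 CPM and the Rnmt cKO libraries 40.5, 41.3 and 30.2 CPM (-1.53, SE 0.16, adjusted p = 4.49e-04). Snhg1 had 93.2, 85.3 and 83.4 CPM in control and 34.8, 42.1 and 42.0 CPM in Rnmt cKO (-1.14, SE 0.10, adjusted p = 1.63e-04). Gas5 was the most uneven of these in control, where replicate 2 was low.

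Snhg8 changed less in RPF, from 42.6, 40.1 and 40.7 CPM to 27.4, 24.3 and 20.6 CPM, a 1.69-fold decrease (log2 difference -0.76, SE 0.11, adjusted p = 0.00213). Snhg6 had 38.6, 31.6 and 40.7 CPM in control and 28.5, 30.2 and 27.7 CPM in Rnmt cKO. Its log2 difference of -0.36 (SE 0.11) passed narrowly, with an adjusted p of 0.0458. The Snhg6 call was lost under 9 of 13 alternatives, among them DESeq2 (adjusted p = 0.101), edgeR's exact test (0.0698) and the omission of any 1 library other than control replicate 2 (0.0850 to 0.136), with adjusted p over all alternatives from 0.0144 to 0.136.

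Snhg15 rose in RPF as well, from 33.3, 29.3 and 33.7 CPM to 120, 123 and 103 CPM (3.59-fold, log2 difference 1.85, SE 0.10, adjusted p = 3.53e-05). Snhg20 had 1.03, 1.80 and 1.59 CPM in control and 1.75, 1.75 and 3.44 CPM in Rnmt cKO, from between 11 and 18 counts per library. The genotype difference in Snhg20 RPF did not pass (log2 difference 0.60, SE 0.43, adjusted p = 0.322), and one of this size may not be detectable at such counts.

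**Figure D2:**
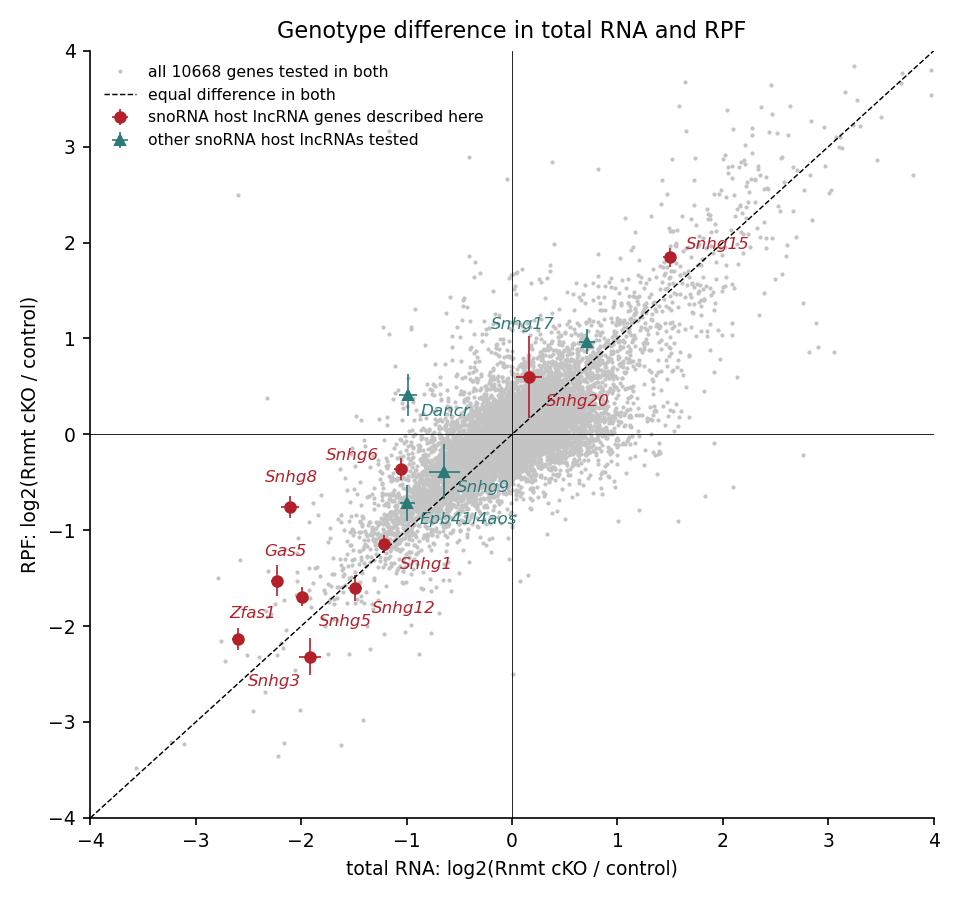
Log2 difference between Rnmt cKO and control in total RNA (x axis) and RPF (y axis); grey dots are the 10668 genes tested in both, red circles the host genes described here, green triangles the other snoRNA host lncRNAs tested, bars are standard errors and the dashed line marks equal differences. Snhg8 (-2.11 and -0.76), Gas5 (-2.23 and -1.53) and Snhg6 (-1.06 and -0.36) lie above the line on the side of the smaller RPF difference, while Snhg1 lies on it.

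How many RPF were recovered per unit of total RNA was compared within each genotype, with the TMM scaling made within each kind of library. These ratios hold the total RNA values known when the genes were chosen, so they too are given as a description without p-values. In control, RPF CPM were lower than total RNA CPM for 9 of the 10 host genes past an adjusted p of 0.05, where 30.1% of the 10668 genes tested were lower. The median log2 difference over the host genes was -1.34, against 0.19 over 9985 protein-coding genes. The scale of this ratio is relative, since mitochondrial ribosomal RNA took 21.0 to 23.6% of gene counts in control total RNA and 2.74 to 4.51% in control RPF, so each gene is set beside the protein-coding genes.

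Gas5 had ratios of RPF CPM to total RNA CPM of 0.357, 0.258 and 0.332 in the same-numbered control libraries. Its log2 difference of -1.65 (SE 0.12) had 4.39% of coding genes below it. Zfas1 had ratios of 0.410, 0.362 and 0.374 (log2 difference -1.39, SE 0.08), with 6.60% of coding genes lower. Snhg1, Snhg6 and Snhg8 had log2 differences of -1.38, -1.39 and -1.30, with 6.70%, 6.59% and 7.58% of coding genes lower. Snhg12 (-1.07), Snhg5 (-1.03) and Snhg15 (-0.85) lay further in, with 10.7%, 11.4% and 14.5% of coding genes lower. These 8 genes thus sat in the lower tail of the coding genes without leaving their range.

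Snhg20 was the lowest, at a log2 difference of -2.43 (SE 0.24), with 1.26% of coding genes lower. Snhg3 stood apart at the other end, with ratios of 1.31, 0.998 and 0.829 and a log2 difference of 0.07 (SE 0.15), and 44.8% of coding genes lower. The median of the 241 lncRNA genes tested (annotated as lincRNA, antisense or processed transcript, the host genes included) was -0.62, so that 9 host genes lay below and Snhg3 above the median lncRNA.

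In Rnmt cKO, 8 of the 10 were lower in RPF than in total RNA past the same threshold, where 29.8% of genes tested were lower. Snhg8 did not pass it, with ratios of 1.15, 1.15 and 0.809 against 0.412, 0.383 and 0.424 in control. Its log2 difference in Rnmt cKO was 0.06 (SE 0.10), and 43.7% of coding genes were lower. Gas5 moved from 4.39% to 12.2% of coding genes lower, Zfas1 from 6.60% to 12.8% and Snhg6 from 6.59% to 17.6%. Snhg1 (6.70% and 7.18%) and Snhg12 (10.7% and 8.64%) kept about the same place, and Snhg3 (-0.35, SE 0.18) moved from 44.8% to 28.1%.

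**Figure D3:**
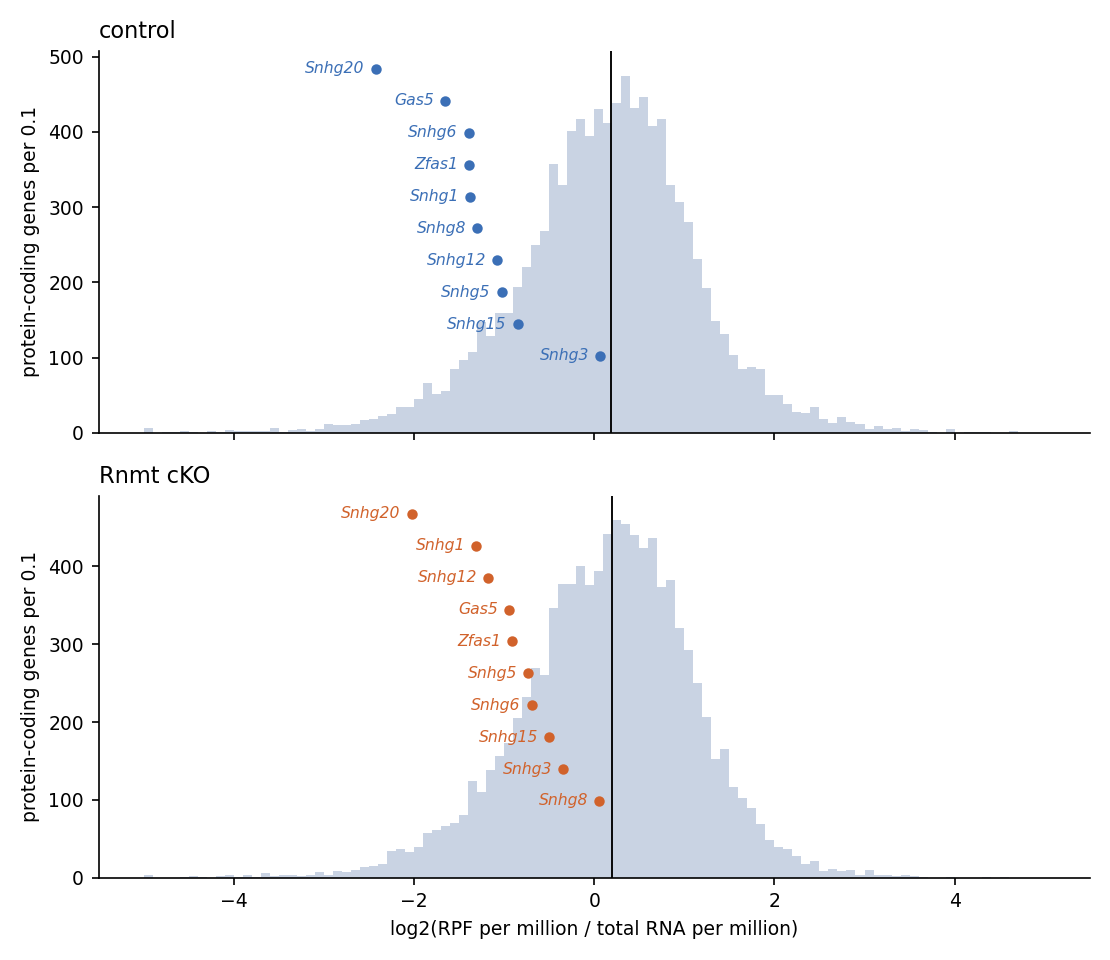
Histogram of the log2 ratio of RPF CPM to total RNA CPM over 9985 protein-coding genes, in control above and Rnmt cKO below (y axis, genes per 0.1; values beyond 5 in either direction are drawn at 5); the vertical line is the median and labelled points are the host genes, at heights that only separate their names. Snhg8 lies in the lower tail in control and next to the median in Rnmt cKO.

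The genotype effect on this ratio, here called translational efficiency (TE), is likewise a description. The log2 difference in TE was 1.36 (SE 0.14) for Snhg8, 0.71 (SE 0.18) for Gas5, 0.70 (SE 0.12) for Snhg6 and 0.48 (SE 0.12) for Zfas1. These 4 passed an adjusted p of 0.05 upward and none passed downward, where 3.22% of the 10668 genes tested passed upward and 6.55% downward. The other 6 had log2 differences between -0.42 (Snhg3) and 0.40 (Snhg20). With same-numbered libraries set together, the 3 Rnmt cKO ratios of Snhg8, Gas5, Snhg6 and Zfas1 all lay above the 3 control ratios. Without control replicate 3, cKO replicate 1 or cKO replicate 2 the upward count was 2, and Gas5 and Zfas1 were the genes lost. Zfas1 was also lost without control replicate 1 or control replicate 2, with library sizes in place of TMM and with no filter on low counts.

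RPF libraries also hold fragments that no ribosome covered. Snora73b, an H/ACA RNA that is not translated and takes part in ribosomal RNA cleavage, had 1161, 1387 and 1016 CPM in control RPF against 360.2, 360.2 and 292 CPM in control total RNA. In Rnmt cKO it had 140.0, 406 and 449 CPM in RPF and 93.9, 42.0 and 65.4 CPM in total RNA. The genotypes did not overlap in either kind, and the RPF difference was 3.59-fold (log2 difference -1.84, SE 0.37, adjusted p = 0.00731), with Rnmt cKO replicate 1 far below the others. How much of the RPF on the host exons was ribosome-bound was not tested.

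Sequence and position bear on how these small RNAs were counted. Snora73a (chr4:132352775-132352979) and Snora73b (chr4:132352322-132352526), on the minus strand within Snhg3, are identical at 198 of 205 aligned bases (96.6%), so uniquely mapped reads could separate them only at the few differing bases. Snord87 (chr1:9942463-9942549, minus strand), a C/D box RNA, lies in an intron of Snhg6. Their sequences are shown as those of the small RNAs that passed the filter on low counts.

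Snora73a: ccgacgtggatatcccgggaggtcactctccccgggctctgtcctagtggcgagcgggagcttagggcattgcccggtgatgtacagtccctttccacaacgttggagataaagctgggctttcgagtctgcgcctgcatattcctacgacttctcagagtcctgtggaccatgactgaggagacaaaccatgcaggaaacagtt
Snora73b: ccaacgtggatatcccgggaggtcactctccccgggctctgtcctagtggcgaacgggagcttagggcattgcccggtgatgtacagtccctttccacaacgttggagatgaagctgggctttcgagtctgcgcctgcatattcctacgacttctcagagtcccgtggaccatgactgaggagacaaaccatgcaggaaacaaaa
Snord87: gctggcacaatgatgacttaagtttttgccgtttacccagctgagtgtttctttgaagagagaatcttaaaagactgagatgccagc

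Snord87 had 3.44, 3.54 and 3.98 CPM in control total RNA and 2.85, 1.85 and 2.54 CPM in Rnmt cKO, with no overlap (log2 difference -0.60, SE 0.19, adjusted p = 0.0276). It had 38.6, 21.2 and 33.5 CPM in control RPF and 24.4, 19.6 and 17.4 CPM in Rnmt cKO RPF, which overlapped (-0.60, SE 0.22, adjusted p = 0.0722). Snora73a was at 22.9, 29.5 and 18.3 CPM in control total RNA and 5.15, 2.73 and 3.92 CPM in Rnmt cKO (-2.60, SE 0.25). In RPF it had 0.187, 2.11 and 1.83 CPM in control and 2.33, 3.70 and 17.7 CPM in Rnmt cKO. Every Rnmt cKO library thus lay above the control libraries in RPF and below them in total RNA, and the RPF difference did not pass (2.49, SE 0.92, adjusted p = 0.0748). Its log2 difference in TE, 4.99 (SE 0.94), was the highest of all genes tested, on 2 to 72 RPF counts per library. Snora73a can share reads with its near-identical copy Snora73b, and reads over its part in the Snhg3 exon were left out. Besides these and Snora73b, only Snora16a of Snhg12 had any count, 1 to 3 reads in 4 libraries, and 30 of the 34 small RNA genes were listed at 0 in every library. Among all 1507 snoRNA genes counted, 77.0% were at 0 throughout. The counter left out reads that overlap 2 annotated genes. Snora44, Snora61 and Snord99 of Snhg12, Snora9 of Snhg15 and the small Cajal body RNA of Snhg20 lie wholly within host exons. In the annotation used here every read on them overlaps 2 genes. The Snord80 entries of Gas5 lie over each other. Most of the small RNA genes share no base with a host exon, and why the remaining ones were at 0 was not tested. The zeros are given as listed and are not read as levels.

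Snhg3 shares 27.4% of its exon bases with other genes on its strand, and 85.5% lie opposite an antisense gene. Its counts therefore depend on strand: with strand ignored its control total RNA libraries kept 11, 16 and 10 counts in place of 781, 747 and 812, and the RPF log2 difference was 0.04 (adjusted p = 0.967). Rcc1, the chromatin-bound exchange factor for Ran encoded beside Snhg3, differed little between genotypes, by 0.10 (SE 0.06, adjusted p = 0.181) in total RNA and 0.06 (SE 0.06, adjusted p = 0.467) in RPF on the log2 scale.

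Of the genes that start within 1000 bases on the opposite strand, Znfx1, an RNA helicase gene whose start lies 81 bases from that of Zfas1, fell in total RNA (log2 difference -0.84, SE 0.08, adjusted p = 9.68e-05) and in RPF (-1.05, SE 0.10, adjusted p = 2.81e-04). Slc3a2, the heavy chain of the CD98 amino acid transporter, starts 106 bases from Snhg1 and rose, by 0.57 (SE 0.08, adjusted p = 7.45e-04) in total RNA and 0.22 (SE 0.06, adjusted p = 0.0247) in RPF. Zbtb37, 427 bases from Gas5, had differences of -0.22 (adjusted p = 0.169) and -0.54 (adjusted p = 0.0609). Thus Snhg1 and Slc3a2 differed in opposite directions, and Zfas1 and Znfx1 in the same one.

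Other snoRNA host lncRNAs were taken from a list of 11, of which 7 were found by symbol and 4 passed the filter on low counts. In total RNA Dancr (log2 difference -0.98, SE 0.08), Epb41l4aos (-0.99, SE 0.08) and Snhg9 (-0.64, SE 0.15) fell, and Snhg17 rose by 0.71 (SE 0.08), with adjusted p from 3.76e-05 to 0.00657. In RPF Snhg17 rose from 13.7, 13.1 and 14.7 CPM to between 23 and 29.5 CPM (adjusted p = 0.00137) and Epb41l4aos fell (-0.72, SE 0.19, adjusted p = 0.0242). Dancr, at between 14 and 24.2 CPM in control RPF and 28.2, 19.6 and 25.3 CPM in Rnmt cKO RPF, and Snhg9 did not pass (adjusted p = 0.192 and 0.337). As with Snhg15 among the genes described above, then, 1 further lncRNA host was higher in Rnmt cKO in both kinds of library. Dancr had a log2 difference in TE of 1.40 (SE 0.25, adjusted p = 0.00319), beside 1.36 for Snhg8. The other 3 of these 4 hosts did not pass in TE. A higher TE in Rnmt cKO was thus not particular to the 10 host genes.

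Ribosomal protein mRNAs, the best known TOP mRNAs, fell in total RNA for 71 of the 80 tested and rose for none, with a median log2 difference of -0.72 against -0.00 over all genes tested, of which 28% fell. In RPF 2 of the 80 fell and 4 rose, with a median of -0.06, where 15.7% of all genes tested fell and 14.1% rose. Among the 29 ribosomal protein genes that host snoRNAs, 27 fell and none rose in total RNA, and 1 fell and 2 rose in RPF. Rps20 had 1073, 1089 and 947 CPM in control total RNA and 377, 375 and 421 CPM in Rnmt cKO, and in RPF 258, 280.3 and 290.0 CPM against 294, 261 and 239 CPM. The median log2 difference in TE was 0.73 over ribosomal protein genes and 0.38 over the 10 host lncRNAs, against 0.03 over all genes tested.

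Of 178 other protein-coding hosts of snoRNAs tested in total RNA, 22.5% fell and 30.9% rose, against 28% and 26.3% of all genes tested, with a median of 0.11. Of 174 in RPF, 13.2% fell and 16.7% rose, against 15.7% and 14.1%. Wdr43, a ribosome biogenesis factor, had the largest rise among those named by rule, from 301, 294 and 309 CPM to 883, 891 and 926 CPM in total RNA, while in RPF its log2 difference was 0.09 (SE 0.07, adjusted p = 0.349). Eif4a2, a translation initiation helicase, fell in total RNA (-1.17, SE 0.06, adjusted p = 9.25e-06) and in RPF (-0.62, SE 0.06, adjusted p = 3.69e-04). The elongation factor gene Eef1b2 fell in total RNA (-1.15, SE 0.08, adjusted p = 2.23e-05) but did not pass in RPF (-0.22, SE 0.11, adjusted p = 0.165). Ltn1, a ubiquitin ligase of ribosome quality control, rose in total RNA (1.00, SE 0.13, adjusted p = 3.94e-04) but did not pass in RPF (-0.11, SE 0.09, adjusted p = 0.414). Lclat1 fell in total RNA (-1.12, SE 0.11, adjusted p = 1.19e-04) and in RPF (-0.94, SE 0.13, adjusted p = 0.00166).

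Among genes for NMD factors 10 of 17 rose in total RNA and 1 fell, with a median log2 difference of 0.25, where 26.3% of all genes tested rose and 28% fell. Upf1, the central NMD helicase, rose by 0.56 (SE 0.09, adjusted p = 0.00129), and Pnrc2 fell (-0.32, SE 0.07). In RPF 3 of 17 rose, a share of 17.6% against 14.1% of all genes tested, and 1 fell against 15.7%, with a median of 0.12. Upf1 rose in RPF by 0.23 (SE 0.05, adjusted p = 0.0139). Its partner Upf2 fell in RPF by 0.23 (SE 0.07, adjusted p = 0.0491) but rose in total RNA by 0.42 (SE 0.08, adjusted p = 0.00348).

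Genes for the proteins that clothe and assemble snoRNAs rose in total RNA for 14 of 22 and fell for 1, with a median of 0.38, where 26.3% of all genes tested rose and 28% fell. Nop56, a core C/D box protein, rose from 211, 207 and 213 CPM to 432, 443 and 449 CPM (1.07, SE 0.05, adjusted p = 9.25e-06), and also in RPF (0.47, SE 0.08, adjusted p = 0.00305). Gar1, a core H/ACA protein, rose (1.37, SE 0.34, adjusted p = 0.00954) with uneven libraries of 66.6, 53.4 and 28.8 CPM in Rnmt cKO against 15.7, 14.4 and 27.2 CPM in control. Naf1, an H/ACA assembly factor, rose by 1.12 in total RNA (SE 0.16, adjusted p = 7.61e-04) but did not pass in RPF (0.10, SE 0.09, adjusted p = 0.445). Fbl, the methyltransferase of the C/D box particle, did not pass in total RNA (0.40, SE 0.24, adjusted p = 0.187) and fell in RPF (-0.34, SE 0.10, adjusted p = 0.0313). In RPF 6 of 22 rose and 2 fell, with a median of 0.09, where 14.1% of all genes tested rose and 15.7% fell.

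Across the 12 libraries, centred within each kind, the genes most like the mean profile of the 10 host genes were Polr3g (Pearson r = 0.998), Arhgdib (0.997), Cdca7l (0.996), Timeless (0.995) and Pdha1 (0.995), out of 7289 genes compared. The points share genotype, depth and scaling, and any gene that was evenly lower in Rnmt cKO scores high, so r is a description over 12 libraries. Among the host genes, Snhg15 (r = -0.953) and Snhg20 (r = -0.486) ran against this mean profile. The log2 difference in total RNA was -1.33 (SE 0.07) for Arhgdib, -1.44 (SE 0.07) for Cdca7l and -0.53 (SE 0.06) for Polr3g. It was -1.17 (SE 0.06) for Timeless and -0.99 (SE 0.05) for Pdha1. Each decrease was smaller than that of Snhg12, but those of Arhgdib and Cdca7l were larger than those of Snhg1 (-1.22) and Snhg6 (-1.06).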

How the data were processed

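Per the labels and the study's methods, RPF and total RNA libraries were made with a TruSeq Ribo Profile kit, and 1 read of each pair was trimmed with Cutadapt, cleared of ribosomal and transfer RNA with Bowtie and aligned to mm10 with STAR 2.5.2b and GENCODE vM12. The deposited values are unnormalized counts of uniquely mapped reads per gene for each strand setting, with reads on 2 genes left out, and the strand holding nearly all gene counts was used. A deposited table of scaled values with the authors' fold changes and p-values was not used. Counts were tested with edgeR 4.0.16 (quasi-likelihood test, TMM, genes above 1 CPM in at least 3 of 6 libraries, Benjamini-Hochberg threshold 0.05), with 1 fit per kind of library and 1 over 12 libraries for ratios and TE. DESeq2 1.42.0 was an alternative. RPKM used exon lengths merged over GENCODE vM21 basic transcripts, since vM12 was not used here. The scripts were tested on simulated data. The members, lists and tests were chosen with earlier results of these data known. Named genes were the 10 hosts, Rnmt, the listed hosts, fixed core factors and up to 3 largest rises and falls per list whose mean log2 CPM reached 4 and whose genotypes did not overlap; 1 gene is not reported here. The labels do not say whether replicates were separate animals, so p-values measure the spread between these samples. Same-numbered total RNA and RPF libraries deviated together in 6 of 6 pairs (r from 0.112 to 0.374 over 10668 genes). The labels do not say whether such a pair came from 1 culture. Between libraries of unlike number and genotype r reached 0.385. A fit blocked on these same-numbered pairs was set beside each ratio and changed no call of a host gene. Across genotypes same-numbered libraries did not deviate together (r from -0.523 to 0.141).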

Additional observations from a re-analysis of the deposited data

Results flagged for a closer look

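Snhg8, Gas5, Snhg6 and Zfas1 were picked out because the interaction term of the 12-library edgeR fit, between genotype and kind of library, passed the threshold for them. The genotype effect in RPF exceeded that in total RNA by 1.36 for Snhg8, 0.709 for Gas5, 0.699 for Snhg6 and 0.476 for Zfas1 on the log2 scale. In all 4 the RNA was lower in Rnmt cKO in both kinds of library, and the decrease was smaller in RPF. The interaction holds the total RNA contrast known when the genes were chosen, so these values are a description, and no cause was tested. The number of host genes past the threshold upward was 4, and it was 2 without control replicate 3, cKO replicate 1 or cKO replicate 2, when Gas5 and Zfas1 were lost, and 3 without TMM scaling or without the filter on low counts, when Zfas1 was lost.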

How the results depend on the processing

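The counts of host genes that fell or rose in total RNA, in RPF and in RPF against total RNA stayed within 1.5 times under every alternative run. Without each replicate in turn, the TE fit gave 410 to 829 genes down and 123 to 356 up, with 2 to 5 host genes up, and with no filter on low counts it gave 165 genes up, against 343. The sign reversed for Snhg3 in RPF with both strands counted (0.037, against -2.32), where few of its reads remained. Values near 0 reversed for Snhg1 in TE without cKO replicate 2 (-0.00437, range without each replicate to 0.153), Snhg3 in RPF against total RNA in control without control replicate 1 (-0.138, range to 0.216) and with TMM over all 12 libraries (-0.12), and Snhg8 in RPF against total RNA in Rnmt cKO without cKO replicate 1 (-0.056, range to 0.206), without cKO replicate 2 (-0.00830) and with TMM over all 12 libraries (-0.13). The cause was not tested. The scaling over all 12 libraries and the exon length without shared bases were chosen after seeing the data. With the replicate number as a block, RPF gave 7 host genes down, since Snhg6 was lost (adjusted p = 0.0751), and total RNA gave 2751 genes down and 2455 up. Blocked on the same-numbered pairs, TE gave 775 genes down and 425 up and the same 4 host genes up, and no other call of a host gene changed. Snhg20 had 11 to 18 RPF counts per library, which limits what could be seen.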
